A study of Mus musculus with 10 samples.

Results

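The chemokine ligands described here are 10 genes, taken by gene name from the 52550 genes of the deposited expression table, and each name matched 1 row. They comprise 6 CC ligands (Ccl3, Ccl4, Ccl6, Ccl9, Ccl17 and Ccl22) and 4 CXC ligands (Cxcl2, Cxcl9, Cxcl10 and Cxcl16). RNA was sequenced in bulk from cells sorted as pre-cDC2 and pre-cDC1, the committed precursors of the cDC2 and cDC1 branches of conventional dendritic cells (cDCs), from the spleen of C57BL/6 mice. The sample titles call these cells Ly6C (pre-cDC2) and DN (pre-cDC1). The groups were pre-cDC2 of CD11c-cre Adam10fl/fl mice (KO, n = 2), pre-cDC2 of wild-type mice (WT, n = 2), pre-cDC1 of KO mice (n = 3) and pre-cDC1 of WT mice (n = 3). In KO mice, Adam10, which encodes a membrane protease, carries loxP sites and is cut by a Cre that the CD11c promoter drives. CD11c is made by dendritic cells and also by some other leukocytes, so Cre can act outside the sequenced cells. Ages were not found in the labels. The labels do not say whether replicates came from separate mice, and p-values therefore measure the spread between these libraries, which may be technical.

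Chemokines are small secreted proteins that guide migrating leukocytes through receptors coupled to G proteins, and cDCs use them to bring T cells and NK cells into contact with antigen. CCL3 and CCL4 are inflammatory CC ligands that draw T cells and monocytes, and CCL3 acts through CCR1. CCL6 and CCL9 are mouse ligands of CCR1. CCL17 and CCL22 are ligands of CCR4 known from matured DCs, and CXCL2 draws neutrophils through CXCR2. CXCL9 and CXCL10 are interferon-induced ligands of CXCR3 and a known product of the cDC1 branch. CXCL16, the ligand of CXCR6, is made as a transmembrane protein from which ADAM10 is known to release a soluble form, a step that transcript levels do not show.

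Within the GRCm38 assembly, 5 of the 10 genes lie on chromosome 11. Ccl9 (chr11:83572919-83578636, minus strand) and Ccl6 (chr11:83587882-83593087, minus strand) are 9.24 kb apart, and Ccl3 (chr11:83647844-83649355, minus strand) and Ccl4 (chr11:83662584-83664683, plus strand) are 13.2 kb apart. On chromosome 5, Cxcl9 (chr5:92321347-92328079, minus strand) and Cxcl10 (chr5:92346638-92348889, minus strand) are 18.6 kb apart. No protein-coding gene of the GENCODE annotation lies within any of these 3 gaps. The 250 bases before the transcription start are shown for these ligands, because the members of each pair are set side by side below. They are RefSeq sequences of build GRCm38.p6, which held 8 of the 10 ligands and not Ccl4 or Cxcl16. Each runs 5′ to 3′ on the strand of the gene, and capitals mark letters that match a searched motif.
Ccl9 promoter, chr11:83578637-83578886, minus strand: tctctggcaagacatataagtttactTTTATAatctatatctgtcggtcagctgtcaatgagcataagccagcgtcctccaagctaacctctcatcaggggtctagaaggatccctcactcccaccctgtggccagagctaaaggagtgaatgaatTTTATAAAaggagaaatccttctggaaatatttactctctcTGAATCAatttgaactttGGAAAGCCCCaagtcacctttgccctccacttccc
Ccl6 promoter, chr11:83593088-83593337, minus strand: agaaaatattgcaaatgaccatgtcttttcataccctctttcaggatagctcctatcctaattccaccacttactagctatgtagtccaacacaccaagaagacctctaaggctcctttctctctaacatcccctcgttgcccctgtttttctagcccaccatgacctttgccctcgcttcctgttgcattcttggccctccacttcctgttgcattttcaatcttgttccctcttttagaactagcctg
Ccl3 promoter, chr11:83649379-83649628, minus strand: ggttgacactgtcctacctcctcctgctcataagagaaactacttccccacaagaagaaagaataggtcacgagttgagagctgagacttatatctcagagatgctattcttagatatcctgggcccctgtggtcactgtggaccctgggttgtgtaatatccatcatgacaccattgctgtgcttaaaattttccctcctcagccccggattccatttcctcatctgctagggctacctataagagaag
Cxcl9 promoter, chr5:92328080-92328329, minus strand: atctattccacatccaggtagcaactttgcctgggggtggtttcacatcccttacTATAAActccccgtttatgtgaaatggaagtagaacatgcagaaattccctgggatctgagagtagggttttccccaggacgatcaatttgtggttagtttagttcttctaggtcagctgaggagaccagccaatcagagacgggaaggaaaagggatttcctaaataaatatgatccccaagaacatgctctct
Cxcl10 promoter, chr5:92348890-92349139, minus strand: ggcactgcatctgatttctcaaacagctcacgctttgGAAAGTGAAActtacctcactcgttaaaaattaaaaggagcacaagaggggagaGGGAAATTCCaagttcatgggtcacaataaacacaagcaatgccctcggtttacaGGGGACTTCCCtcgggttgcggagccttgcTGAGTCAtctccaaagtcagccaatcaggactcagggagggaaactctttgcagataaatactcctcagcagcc

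The letters searched on both strands were the NF-kB consensus, the core of the interferon-stimulated response element (GAAA, any 2 bases, GAAA), the gamma-activated site TTCNNNGAA, the AP-1 site TGANTCA, the PU.1 site GAGGAAGT and the TATA box TATAAA. In the Ccl9 window, the NF-kB consensus matched from base -35 to base -26 before the start on the opposite strand, and the AP-1 site from -53 to -47. TATAAA matched there 3 times, with overlapping matches on the opposite strands from -94 to -87 and another from -224 to -219. In the Cxcl10 window, the interferon-stimulated response element core matched from -213 to -204, the NF-kB consensus from -159 to -150 and in overlapping matches from -104 to -94, and the AP-1 site from -74 to -68. The Cxcl9 window held 1 match, TATAAA from -195 to -190, and none of the 6 motifs matched in the Ccl6 and Ccl3 windows. Among 32851 RefSeq promoter windows of the same length, 7.25% held the NF-kB consensus, 2.98% the interferon-stimulated response element core, 7.02% TTCNNNGAA, 6.75% TGANTCA, 2.44% GAGGAAGT and 12.4% TATAAA. A match describes letters and not a bound site. The best local alignment of the Cxcl10 and Cxcl9 windows had 23 identical bases in 28 columns, and that of the Ccl6 and Ccl9 windows 16 in 17.

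Whole reads could be recovered from the deposited values and came to between 7862417 and 13177642 per library. Marker lists differed between the sorted cells. In pre-cDC2, 10 cDC1 markers summed to 247 to 418 RPKM (reads scaled to gene length and library size). In pre-cDC1 they summed to 2915 to 3713 RPKM. The 6 core cDC markers summed to 3418 to 10910 RPKM in pre-cDC2 and to 29870 to 44170 RPKM in pre-cDC1. The 8 plasmacytoid dendritic cell (pDC) markers summed to 350 to 936.5 RPKM in pre-cDC2 and to 59.5 to 109 RPKM in pre-cDC1. The part of pDCs in the differences between the cell types was not tested. Of the 4 pre-cDC2 libraries, WT replicate 2 stood apart. Its 10 NK cell markers summed to 70.3 RPKM and its 10 T cell markers to 48.6 RPKM, against 1354 to 1692 RPKM and 720 to 947 RPKM in the other 3 pre-cDC2 libraries. Its 9 cDC2 markers summed to 1019 RPKM, against 331 to 409 RPKM in those 3. In pre-cDC1, the NK list summed to 4.70 to 5.14 RPKM in KO and 19.2 to 27.6 RPKM in WT, the T cell list to 2.76 to 3.74 RPKM in KO and 5.09 to 9.75 RPKM in WT, and the cDC2 list to 50.7 to 68.8 RPKM in KO and 227 to 240 RPKM in WT. The defining NK receptor gene Ncr1 was at 0 reads in KO pre-cDC1 replicates 1 and 2 and in none of the WT pre-cDC1 libraries. In bulk RNA, fewer cells of a type and less RNA per cell cannot be told apart. Adam10 itself had 909 and 742 reads in KO pre-cDC2, 228 and 1261 reads in WT pre-cDC2, 9, 3 and 13 reads in KO pre-cDC1, and 28, 48 and 10 reads in WT pre-cDC1. Its value includes exons outside the deleted part and does not check the deletion.

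The RPKM of the 10 ligands summed to 348 and 318 in KO pre-cDC2, 422 and 287 in WT pre-cDC2, 185, 158 and 209 in KO pre-cDC1, and 295, 313 and 273 in WT pre-cDC1. KO pre-cDC1 libraries were thus the lowest of the 10, and their range did not overlap with that of WT pre-cDC1. Ccl4 made up 71.4% and 66.6% of the sum in KO pre-cDC2 and 62.4% and 66.1% in WT pre-cDC2. In pre-cDC1 its share was 26.2%, 26.3% and 30.9% in KO and 28.5%, 31.9% and 33.5% in WT. Among the 10 ligands, 1 therefore dominated the sum in pre-cDC2. Ccl5, which is not among the 10, had a mean of 676 RPKM in KO pre-cDC2 and is described below. In pre-cDC1 the sum spread over Ccl4, Cxcl16, Ccl6, Cxcl9 and Ccl3, and in WT also over Ccl9. The share of Ccl9 was 1.16% to 2.06% in KO pre-cDC1 and 6.24% to 8.89% in WT pre-cDC1. Cxcl16 contributed 0.484% and 0.74% in KO pre-cDC2, 1.91% and 0.393% in WT pre-cDC2, 33.3%, 36.9% and 32.2% in KO pre-cDC1, and 23.6%, 19.4% and 23.8% in WT pre-cDC1.

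**Figure D1:**
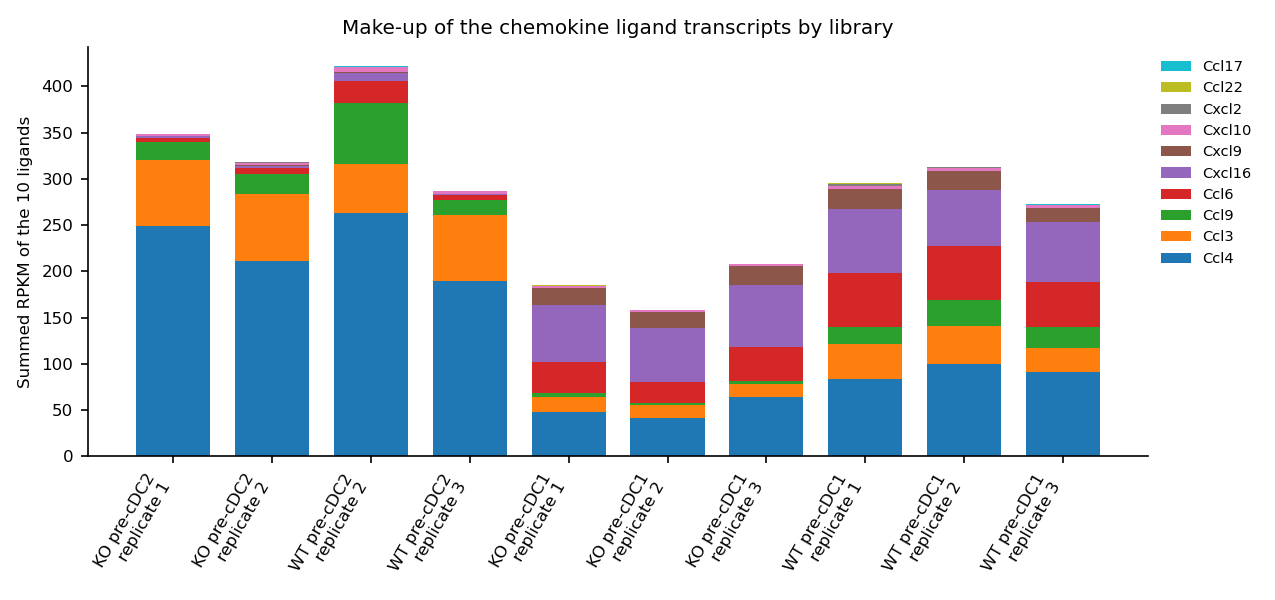
Summed RPKM of the 10 ligands (vertical axis) in each of the 10 libraries (bars), divided by ligand. Ccl4 fills 62.4% to 71.4% of each pre-cDC2 bar, and Cxcl16 19.4% to 36.9% of each pre-cDC1 bar.

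Of the 10 ligands, 7 passed the filter on low values (log2 RPKM above 0 in at least 2 libraries) and were tested, while Ccl17, Ccl22 and Cxcl2 did not. Ccl17 had 0 reads in each KO pre-cDC2 and KO pre-cDC1 library, 3 and 0 reads in WT pre-cDC2, and 0, 0 and 6 reads in WT pre-cDC1. Ccl22 had 0 reads in each of the 4 pre-cDC2 libraries, 13, 0 and 0 reads in KO pre-cDC1, and 22, 10 and 0 reads in WT pre-cDC1. Both CCR4 ligands were thus at 22 reads or fewer in every library, and a count of 0 allows up to 3 reads. Cxcl2, the neutrophil-drawing ligand, had 13 and 10 reads in KO pre-cDC2, 18 and 0 in WT pre-cDC2, 3, 0 and 2 in KO pre-cDC1, and 30, 15 and 1 in WT pre-cDC1. For each of these 3 ligands at least 1 group held libraries both with and without reads, and they were not compared further.

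**Figure D2:**
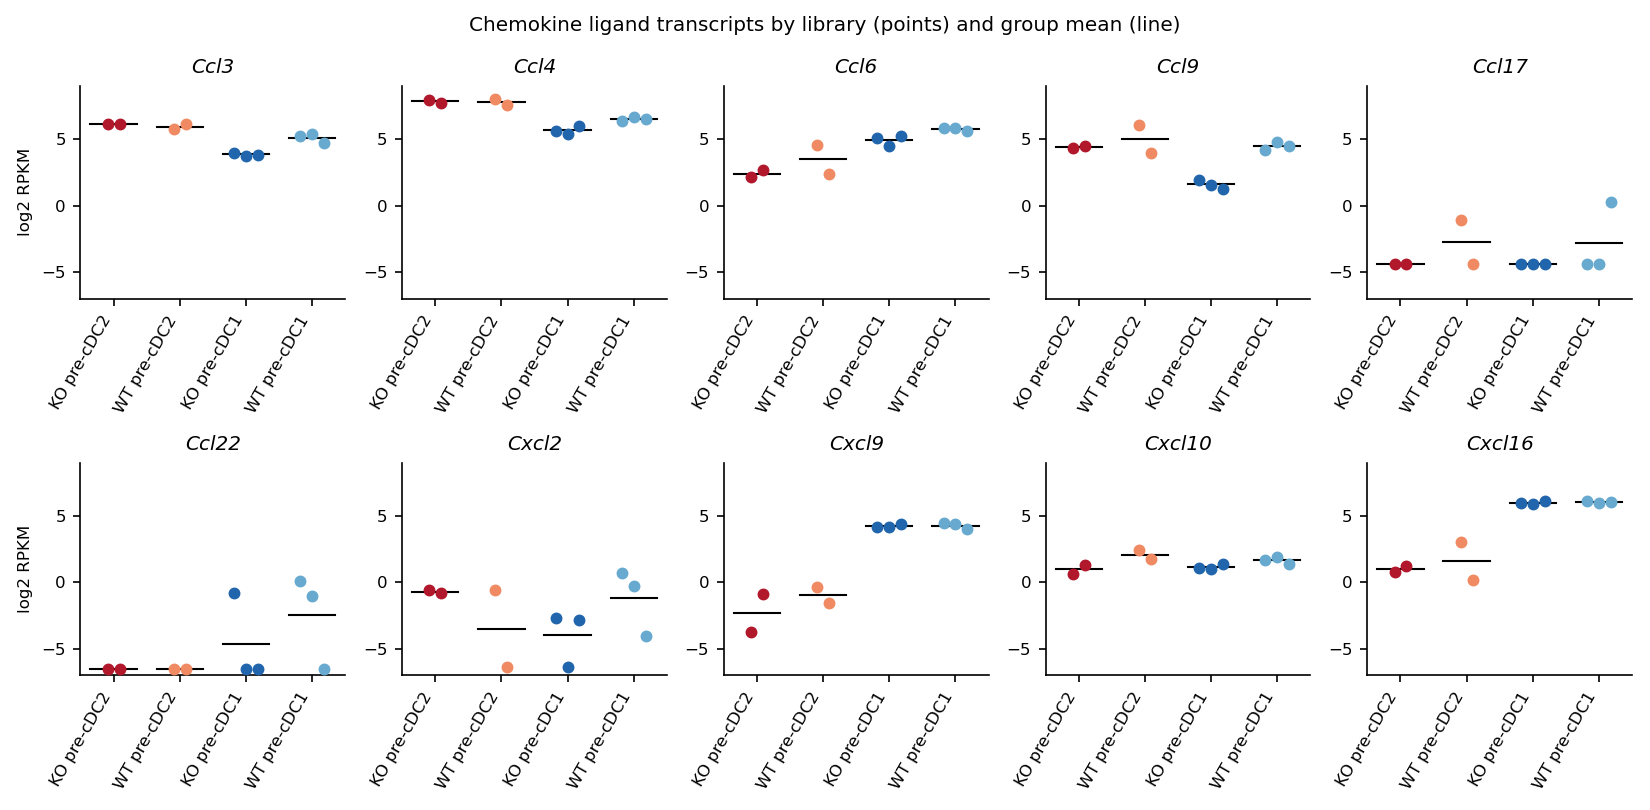
Level of each ligand in log2 RPKM (vertical axis) by group (horizontal axis), with 1 point per library and a line at the group mean. Ccl3 and Ccl4 are highest in pre-cDC2, Cxcl9 and Cxcl16 in pre-cDC1, and Ccl9 is low in KO pre-cDC1, where its 3 libraries lie between 1.28 and 1.93.

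The first comparison asked how the ligands differed between the branches, pre-cDC2 against pre-cDC1. In KO cells, 3 of the 7 tested ligands rose in pre-cDC2 (Ccl3, Ccl4 and Ccl9) and 3 fell (Cxcl9, Cxcl16 and Ccl6), by limma with Benjamini-Hochberg adjustment over 14787 genes at a threshold of 0.05. Over all tested genes, 10.7% (1575) were called higher and 10.1% (1499) lower in that comparison, or 1327 and 1943 genes after centring each library on its median. In WT cells, 2 rose (Ccl3 and Ccl4) and Cxcl9, Cxcl16 and Ccl6 fell, where 4.88% of all tested genes were called higher and 6.59% lower. This centring shifted every difference by -0.19 on the log2 scale in KO cells and by -0.12 in WT cells, without turning any of these directions.

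Cxcl9 and Cxcl16 gave the widest gaps of the 7 ligands. Cxcl9, which draws CXCR3-bearing T and NK cells, stood at -3.72 and -0.89 log2 RPKM in KO pre-cDC2 (2 and 14 reads), at -0.36 and -1.57 in WT pre-cDC2 (32 and 11 reads), at 4.18, 4.14 and 4.35 in KO pre-cDC1, and at 4.43, 4.36 and 3.98 in WT pre-cDC1. All 4 pre-cDC2 libraries were below all 6 pre-cDC1 libraries. Its difference on the log2 scale was -6.53 ± 0.705 (SE) in KO cells, a 92.4-fold lower level in pre-cDC2 (limma adjusted p = 0.00035), and -5.22 ± 0.705 in WT cells, 37.3-fold lower (limma adjusted p = 0.00194). Cxcl16, the membrane-bound ligand, was at 0.76 and 1.24 log2 RPKM in KO pre-cDC2, 3.01 and 0.19 in WT pre-cDC2, 5.94, 5.87 and 6.07 in KO pre-cDC1, and 6.12, 5.92 and 6.02 in WT pre-cDC1. Again no pre-cDC2 library reached a pre-cDC1 library, and WT pre-cDC2 replicate 2 was the highest of the 4 pre-cDC2 libraries. The Cxcl16 difference was -4.96 ± 0.623 in KO cells (31.2-fold lower, limma adjusted p = 0.000717) and -4.42 ± 0.623 in WT cells (21.4-fold lower, limma adjusted p = 0.00244). These sizes moved with single pre-cDC2 libraries and with the pseudocount. The fits named next kept the call, except the last. For Cxcl9 the KO difference was -5.11 without KO pre-cDC2 replicate 1, the library with 2 reads (limma adjusted p = 0.000485), -7.95 without replicate 2 (5.65e-05) and -3.94 with 1 RPKM added before the log2 (6.41e-06). The WT difference of Cxcl9 was -5.83 without WT pre-cDC2 replicate 2 (limma adjusted p = 0.00292) and -4.61 without replicate 3 (0.0139). The WT difference of Cxcl16 was -5.84 without WT pre-cDC2 replicate 2 (limma adjusted p = 2.62e-06) and -3.01 without replicate 3 (0.000102). Taking the spread from the compared groups alone cost the Cxcl16 call in WT (limma adjusted p = 0.073).

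Cxcl10, which shares the receptor CXCR3 with Cxcl9 and lies next to it, did not share this gap. It was at 0.63 and 1.29 log2 RPKM in KO pre-cDC2, 2.44 and 1.71 in WT pre-cDC2, 1.06, 1.00 and 1.37 in KO pre-cDC1, and 1.69, 1.88 and 1.39 in WT pre-cDC1. The pre-cDC2 and pre-cDC1 ranges overlapped in both genotypes. Its difference was -0.18 ± 0.377 in KO cells (95% interval -1.03 to 0.67, limma adjusted p = 0.782) and 0.42 ± 0.377 in WT cells (95% interval -0.43 to 1.27, limma adjusted p = 0.545). Within a library, Cxcl9 minus Cxcl10 on the log2 RPKM scale was -4.35 and -2.18 in KO pre-cDC2, -2.79 and -3.29 in WT pre-cDC2, 3.12, 3.14 and 2.98 in KO pre-cDC1, and 2.74, 2.48 and 2.58 in WT pre-cDC1. The order of the pair was thus opposite between pre-cDC2 and pre-cDC1 libraries. The Cxcl10 gene overlaps Art3 on the opposite strand. Since the strand setting of the counting is not given, reads that fall within both genes cannot be told apart.

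The neighbours Ccl4 and Ccl3 ran the other way. Ccl4 was the most abundant of the 10 ligands in pre-cDC2 and in WT pre-cDC1. It was at 7.96 and 7.73 log2 RPKM in KO pre-cDC2, 8.04 and 7.57 in WT pre-cDC2, 5.60, 5.38 and 6.01 in KO pre-cDC1, and 6.39, 6.64 and 6.51 in WT pre-cDC1. Each pre-cDC2 library exceeded each pre-cDC1 library. The Ccl4 difference was 2.18 ± 0.213 in KO cells (4.53-fold higher, limma adjusted p = 0.000194) and 1.29 ± 0.213 in WT cells (2.44-fold higher, limma adjusted p = 0.00532). Ccl3 was at 6.16 in both KO pre-cDC2 libraries, 5.74 and 6.16 in WT pre-cDC2, 3.99, 3.75 and 3.82 in KO pre-cDC1, and 5.24, 5.38 and 4.68 in WT pre-cDC1. Here too the cell types did not overlap within a genotype. Ccl3 differed by 2.31 ± 0.218 in KO cells (4.94-fold higher, limma adjusted p = 0.000157) and by 0.85 ± 0.218 in WT cells (1.80-fold higher, limma adjusted p = 0.0352). The WT call for Ccl3 was lost in 13 of 19 alternative settings, with an adjusted p of up to 0.218. NK and T cells are themselves known sources of Ccl3 and Ccl4, and their markers were higher in pre-cDC2. In KO cells, 10 of 10 NK markers and 10 of 10 T cell markers were called higher, where 10.7% of all tested genes were. In WT cells, 2 of 10 NK markers and 7 of 10 T cell markers were called higher, where 4.88% of all tested genes were. Ccl4 was highest in WT pre-cDC2 replicate 2, the library with 70.3 RPKM of summed NK markers, while Ccl3 was lowest there among the 4 pre-cDC2 libraries. With WT pre-cDC2 replicate 2 left out, the WT differences were 1.05 for Ccl4 (limma adjusted p = 0.0168) and 1.07 for Ccl3 (limma adjusted p = 0.0224). The part of NK and T cells in the Ccl3 and Ccl4 differences was not tested.

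**Figure D3:**
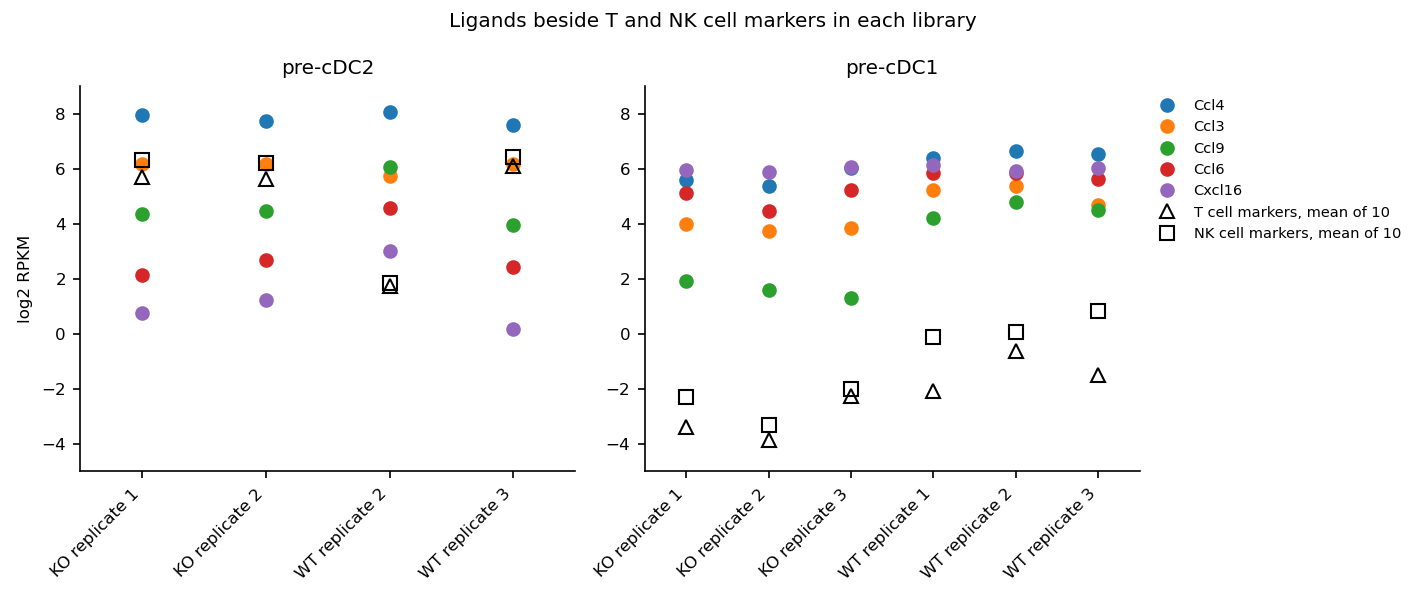
Log2 RPKM (vertical axis) of ligands, and mean log2 RPKM of the T and NK cell marker lists, in each library of pre-cDC2 and pre-cDC1 (horizontal axis). In WT pre-cDC2 replicate 2 the marker means drop. Among the pre-cDC2 libraries, Ccl3 is lowest there (5.74), and Ccl4 (8.04), Ccl9 (6.05), Ccl6 (4.57) and Cxcl16 (3.01) are highest there.

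The neighbours Ccl6 and Ccl9 differed from each other: Ccl6 fell in pre-cDC2 in both genotypes, while Ccl9 rose in KO cells and did not pass in WT cells. Ccl6 was at 2.13 and 2.69 log2 RPKM in KO pre-cDC2, 4.57 and 2.41 in WT pre-cDC2, 5.11, 4.47 and 5.22 in KO pre-cDC1, and 5.85, 5.85 and 5.61 in WT pre-cDC1. It was lower in pre-cDC2 in both genotypes without overlap, with WT pre-cDC2 replicate 2 nearest to the pre-cDC1 range. The difference was -2.52 ± 0.519 in KO cells (5.75-fold lower, limma adjusted p = 0.0085) and -2.28 ± 0.519 in WT cells (4.86-fold lower, limma adjusted p = 0.0221), a call lost in 7 of 19 alternative settings with an adjusted p of up to 0.145. Without KO pre-cDC2 replicate 1 the KO call was lost (limma adjusted p = 0.0803). Without WT pre-cDC2 replicate 3 the WT difference was -1.20 (limma adjusted p = 0.0537), and without replicate 2 it was -3.36 (limma adjusted p = 0.000325). Ccl9 was at 4.33 and 4.47 log2 RPKM in KO pre-cDC2 and at 1.93, 1.58 and 1.28 in KO pre-cDC1, so that it rose in pre-cDC2 by 2.81 ± 0.499 (6.99-fold, limma adjusted p = 0.00412). WT cells gave 6.05 and 3.97 log2 RPKM in pre-cDC2 and 4.20, 4.80 and 4.49 in pre-cDC1. These ranges overlapped, and the difference of 0.51 ± 0.499 did not pass (limma adjusted p = 0.581). It was 1.56 without WT pre-cDC2 replicate 3 (limma adjusted p = 0.0141) and -0.53 without replicate 2 (limma adjusted p = 0.289), so its direction rested on 1 library. Ccl6 minus Ccl9 within a library was -2.20 and -1.78 in KO pre-cDC2, -1.49 and -1.56 in WT pre-cDC2, 3.18, 2.90 and 3.93 in KO pre-cDC1, and 1.65, 1.05 and 1.12 in WT pre-cDC1. Ccl9 exceeded Ccl6 in each pre-cDC2 library and Ccl6 exceeded Ccl9 in each pre-cDC1 library. The Ccl6 gene overlaps E230016K23Rik and the Cxcl16 gene overlaps Zmynd15, each on the opposite strand, with the limit given for Cxcl10.

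**Figure D4:**
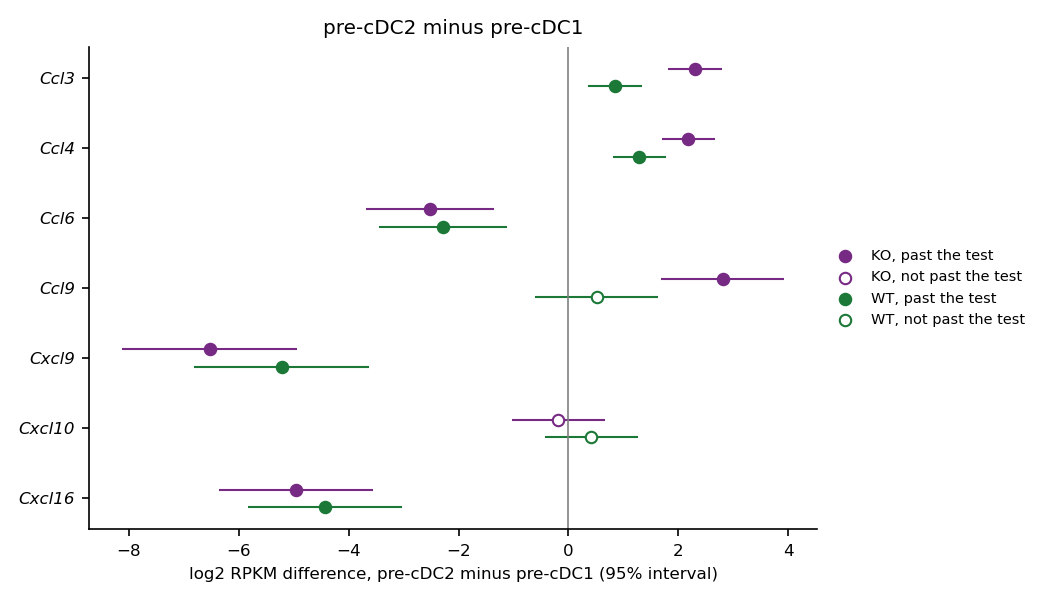
Difference of pre-cDC2 minus pre-cDC1 in log2 RPKM (horizontal axis) for the 7 tested ligands, in KO and in WT cells, with 95% intervals of the limma fit. Filled points passed the test: 3 rose and 3 fell in KO cells, and 2 rose and 3 fell in WT cells.

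The second comparison set KO against WT within pre-cDC1. No ligand passed limma's test, in which 0.0271% of all tested genes were called, and 3 of the 7 had an unadjusted p below 0.05. Voom on the recovered reads called none either. Means were lower in KO for 7 of 7 tested ligands (51.4% of all tested genes had a lower mean), and the KO libraries were all below the WT libraries for 5 of 7, namely Ccl9, Ccl3, Ccl4, Ccl6 and Cxcl10 (9.27% of all tested genes). The median difference of the 7 was -0.84 on the log2 scale, against -0.004 over all tested genes.

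Ccl9 had the largest of these differences. The KO pre-cDC1 libraries held 119, 89 and 56 reads (1.93, 1.58 and 1.28 log2 RPKM) and the WT pre-cDC1 libraries 503, 759 and 697 reads (4.20, 4.80 and 4.49 log2 RPKM). All 3 KO libraries were below all 3 WT libraries, with the highest KO library at 1.93 and the lowest WT library at 4.20. The difference was -2.90 ± 0.446 (SE; 95% interval -3.91 to -1.90), a 7.47-fold lower level in KO, with a limma adjusted p of 0.0643. It passed when the spread was taken from pre-cDC1 alone (limma adjusted p = 0.0426) and under a stricter filter (0.0499). Over the 19 alternatives the adjusted p reached up to 0.34. Leaving out either WT pre-cDC2 library also gave a pass, but this does not change the pre-cDC1 difference. It only takes the spread between the WT pre-cDC2 libraries out of the fit, so it adds no support. Ccl3, at 3.99, 3.75 and 3.82 log2 RPKM in KO and 5.24, 5.38 and 4.68 in WT, differed by -1.24 ± 0.195 (95% interval -1.68 to -0.80), a 2.37-fold lower level (limma adjusted p = 0.0715). KO and WT libraries did not overlap, and the adjusted p reached up to 0.34 over the alternatives. Ccl3 passed only in the fits without a WT pre-cDC2 library, which has the limit given for Ccl9. Ccl4, its neighbour, was at 5.60, 5.38 and 6.01 in KO and 6.39, 6.64 and 6.51 in WT, a difference of -0.85 ± 0.191 (limma adjusted p = 0.173).

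The remaining ligands differed less between KO and WT pre-cDC1. Ccl6 differed by -0.84 ± 0.464 (limma adjusted p = 0.649) and Cxcl10 by -0.51 ± 0.337 (limma adjusted p = 0.732), each without overlap between the groups. Cxcl9 averaged 4.22 ± 0.12 log2 RPKM in KO and 4.26 ± 0.24 in WT (SD, n = 3 each), and Cxcl16 5.96 ± 0.10 in KO and 6.02 ± 0.10 in WT. Both pairs of groups overlapped. The 95% interval of the Cxcl9 difference was -1.45 to 1.39 and that of Cxcl16 -1.32 to 1.19 in the fit over all groups, and -0.41 to 0.34 and -0.27 to 0.15 in the fit to pre-cDC1 libraries alone. The lower ligand levels in KO moved with lower marker lists of several other cell types: 8 of 8 tested cDC2 markers, 10 of 10 NK markers and 9 of 10 T cell markers had lower means in KO, with medians of -2.21, -2.43 and -1.62, and 9 of 10 monocyte markers did too, with a median of -1.04. Means were also lower in KO for 4 of 4 tested B cell markers (median -2.12), 6 of 6 neutrophil markers (-0.78), 6 of 6 red pulp macrophage markers (-0.84), 5 of 8 pDC markers (-0.45) and 2 of 2 platelet markers (-0.09). The 10 cDC1 markers had a median of 0.37 and higher means in KO for 9. The part of these cells in the Ccl9, Ccl3 and Ccl4 differences was not tested.

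**Figure D5:**
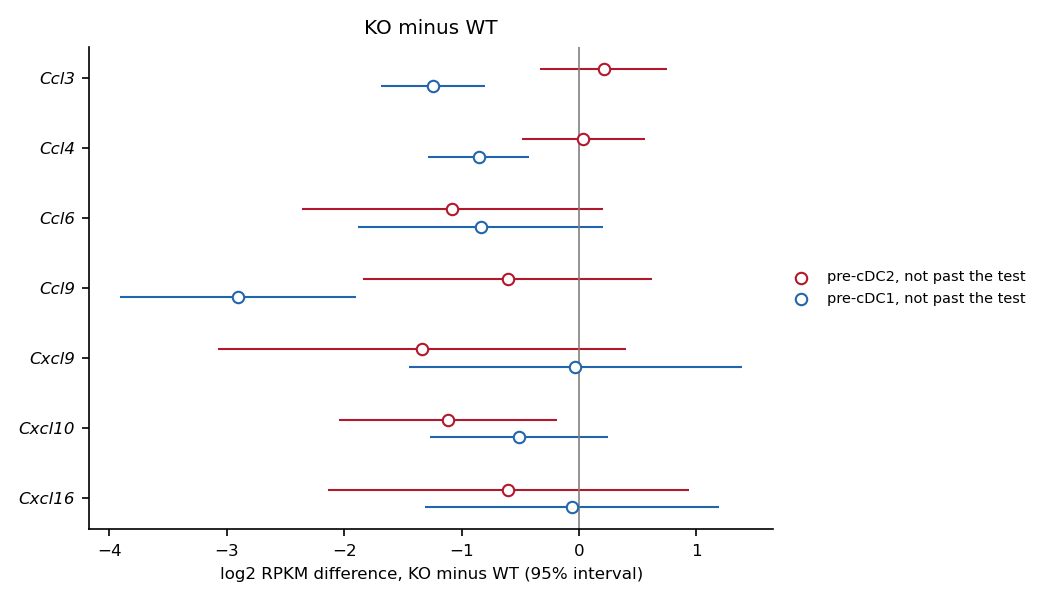
Difference of KO minus WT in log2 RPKM (horizontal axis) for the 7 tested ligands, in pre-cDC2 and in pre-cDC1, with 95% intervals of the limma fit. None passed the test, and in pre-cDC1 the points for Ccl9 (-2.90) and Ccl3 (-1.24) lie farthest from 0 relative to their intervals.

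In pre-cDC2 the same comparison also called no ligand (0.0676% of all tested genes were called), and 1 of 7 had an unadjusted p below 0.05. Voom on the recovered reads called none. Groups did not overlap for 1 of 7, Cxcl10, where 14.6% of all tested genes had KO below WT in each library. Cxcl10, at 0.63 and 1.29 log2 RPKM in KO and 2.44 and 1.71 in WT, differed by -1.11 ± 0.413 (limma adjusted p = 0.669). Ccl3 differed by 0.21 ± 0.239 (95% interval -0.33 to 0.75, limma adjusted p = 0.887) and Ccl4 by 0.04 ± 0.234 (95% interval -0.49 to 0.56, limma adjusted p = 0.995). For Ccl6, Ccl9 and Cxcl16, WT replicate 2 lay above both KO libraries and WT replicate 3 did not. The differences with both WT libraries were -1.08 ± 0.569, -0.61 ± 0.547 and -0.60 ± 0.682 for Ccl6, Ccl9 and Cxcl16 (limma adjusted p = 0.798, 0.858 and 0.886). Without WT replicate 3 they were -2.16, -1.65 and -2.02 (limma adjusted p = 0.0108, 0.0213 and 0.00239), and without WT replicate 2, the library with few T and NK cell markers, Ccl6, Ccl9 and Cxcl16 were at -4.4e-05, 0.43 and 0.81 (limma adjusted p = 1, 0.849 and 0.283). Cxcl9, with 2 and 14 reads in KO and 32 and 11 reads in WT, differed by -1.34 ± 0.772 (limma adjusted p = 0.819).

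Whether the genotype difference itself differed between pre-cDC2 and pre-cDC1 was tested as an interaction, and none of the 7 ligands passed (0.0203% of all tested genes were called), although 3 had an unadjusted p below 0.05. Voom called none. The interaction was 1.45 ± 0.309 for Ccl3 (limma adjusted p = 0.572), 2.29 ± 0.706 for Ccl9 (0.85) and 0.89 ± 0.302 for Ccl4 (0.885). The KO minus WT value of each was higher in pre-cDC2 than in pre-cDC1. Without WT pre-cDC2 replicate 2 the Ccl9 value was 3.34 (limma adjusted p = 0.0243), and without replicate 3 the Ccl3 value was 1.67 (limma adjusted p = 0.0374) and the Cxcl16 value -1.95 (limma adjusted p = 0.0102), against -0.54 with all libraries (0.997). For the other 4, the interaction lay between -1.31 for Cxcl9 and -0.24 for Ccl6. Averaged over the cell types, KO minus WT was below 0 for 7 of 7, with -1.75 ± 0.353 for Ccl9 (limma adjusted p = 0.1), -0.52 ± 0.154 for Ccl3 (0.25), -0.81 ± 0.266 for Cxcl10 (0.301) and -0.41 for Ccl4 (0.368). None passed, where 0.108% of all tested genes were called and 51% had an average below 0, and 5 of 7 had an unadjusted p below 0.05. Voom called none there. Without WT pre-cDC2 replicate 3 the averages of Ccl9, Ccl6 and Cxcl16 were -2.28, -1.50 and -1.04 and passed (limma adjusted p = 0.00151, 0.0071 and 0.00476), so these calls depended on 1 library.

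Most other chemokine ligands were sparse, but Ccl5, Xcl1 and Ccl2 were not. Ccl5 had a mean of 676 RPKM in KO pre-cDC2, where Ccl4 had 230 RPKM. In WT pre-cDC2 its libraries were at 4.02 and 8.98 log2 RPKM. Xcl1 had a mean of 73.8 RPKM in KO pre-cDC2, and Ccl2 had 50.4 RPKM in KO and 46.4 RPKM in WT pre-cDC1. Of 31 listed, 30 were found under a single identifier, 11 of them without a read in any library, 13 with reads (1 to 169 in all) but below the filter, and 6 tested. Ccl2 and Ccl7, ligands of CCR2, fell in pre-cDC2 in both genotypes. Ccl2 had 8 and 9 reads in KO pre-cDC2, 14 and 21 in WT pre-cDC2, 618, 554 and 422 in KO pre-cDC1, and 509, 472 and 498 in WT pre-cDC1, a difference of -5.93 in KO (limma adjusted p = 1.26e-06) and -5.22 in WT (limma adjusted p = 3.55e-06). Ccl7 had no read in the 4 pre-cDC2 libraries and 3 to 66 reads in pre-cDC1, namely 3, 66 and 29 in KO and 33, 13 and 7 in WT (limma adjusted p = 0.00889 in KO and 0.0192 in WT). Xcl1 and Ccl5 are known products of NK and T cells. Ccl5 had 7290 and 4855 reads in KO pre-cDC2, 214 and 5400 in WT pre-cDC2, 16, 5 and 24 in KO pre-cDC1, and 34, 68 and 55 in WT pre-cDC1. The low WT pre-cDC2 library was replicate 2, where the NK and T cell markers were low. Xcl1 rose in pre-cDC2 in KO (9.72, limma adjusted p = 0.000774) and WT (4.89, limma adjusted p = 0.0341), and Ccl5 in KO (8.85, limma adjusted p = 0.00108) but with an adjusted p of 0.066 in WT. Between KO and WT none of the 6 passed limma's test in pre-cDC1 (1 with an unadjusted p below 0.05) or in pre-cDC2 (0 below 0.05), and voom called none.

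Receptors of the ligands were measured in the same libraries. Ccr1, the receptor of Ccl3, Ccl6 and Ccl9, was at 5.22 and 5.33 log2 RPKM in KO pre-cDC2, 6.33 and 5.05 in WT pre-cDC2, -1.25, 0.96 and 1.60 in KO pre-cDC1, and 2.83, 3.60 and 3.85 in WT pre-cDC1. The KO pre-cDC1 libraries were the lowest of the 10 and did not overlap with WT pre-cDC1, with a difference of -2.99 ± 0.662 (limma adjusted p = 0.169). Ccr1 rose in pre-cDC2 over pre-cDC1 in KO (4.84, limma adjusted p = 0.0019), as did Cxcr6 (7.14, 0.00851), and Cxcr3 did not pass (-0.42, 0.777). In WT neither Ccr1 (2.26, limma adjusted p = 0.0858) nor Cxcr6 (4.47, 0.0866) passed. Cxcr6, the receptor of CXCL16, had 210 reads in WT pre-cDC2 replicate 2 and 1022 to 1939 in the other pre-cDC2 libraries. Ccr4, the receptor of the hardly detected Ccl17 and Ccl22, had 0 reads in all 10 libraries.

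Genes of the pathways known to induce these ligands were counted beside them. Of 15 genes of NF-kB signalling and its feedback, 14 had lower means in KO pre-cDC1 (51.4% of all tested genes), 9 without overlap (9.27% of all tested genes), with a median of -0.42, and none passed limma's test (8 with an unadjusted p below 0.05, none by voom). Nfkbia, whose product holds NF-kB in the cytoplasm and is itself an NF-kB target, was at 7.46, 6.85 and 7.15 log2 RPKM in KO pre-cDC1 and 8.25, 8.43 and 8.26 in WT pre-cDC1, a difference of -1.17 ± 0.164 (limma adjusted p = 0.0526). All KO libraries were lower. Nfkbiz, a nuclear co-regulator of the family, differed by -0.84 ± 0.115 (limma adjusted p = 0.0526). In pre-cDC2, Nfkbia was at 7.71 and 7.66 in KO and 8.45 and 8.52 in WT (difference -0.80 ± 0.201, limma adjusted p = 0.415), and Tnf differed by -0.74 (0.58), with 0 of 15 past the test, 2 with an unadjusted p below 0.05 and none by voom. Averaged over the cell types, Nfkbia fell by 0.98 ± 0.13 on the log2 scale (limma adjusted p = 0.042), the 1 of 15 that passed. Over all tested genes, 0.108% passed in that average, 0.0271% in pre-cDC1 and 0.0676% in pre-cDC2. Among 15 genes of interferon signalling none passed in pre-cDC1 (1 with an unadjusted p below 0.05, none by voom), with a median of 0.03 and Ifit1 at -1.36 (limma adjusted p = 0.523) and Ifnar2 at -0.31 (0.613). None passed in pre-cDC2 either (0 with an unadjusted p below 0.05, none by voom), with Gbp2 at 1.44 (limma adjusted p = 0.806) and Irf7 at -0.39 (0.829). Of 14 DC maturation genes, 12 were tested and none passed, with a median of -1.07 in pre-cDC1, where Cd40 was at -0.96 (limma adjusted p = 0.43) and Cd86 at 0.28 (0.56), and of -0.21 in pre-cDC2, where Cd86 was at -0.62 (0.428) and Cd40 at -0.93 (0.754). In each cell type 1 of the 12 had an unadjusted p below 0.05, and voom called none.

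Across the 10 libraries, the profiles most like those of the 4 most abundant of the 10 ligands were sought. The search covered 9480 genes whose mean level reached 1 log2 RPKM. The libraries come from both cell types, so that r also describes that split, and no p is given. Nearest to Ccl4 were Cd72 (Pearson r = 0.993), Def6 (0.986) and Ddr1 (0.986). Nearest to Ccl3 were Klrd1 (0.968), Plec (0.964) and BE692007 (0.962). Ccl6 was nearest to Akr1a1 (0.991), Haao (0.988) and H2-DMb1 (0.985), and Cxcl16 had Ifi211 (0.998) and Ffar4 (0.997) among its nearest.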

How the data were processed

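RNA was sequenced from 10 libraries of sorted splenic pre-cDC2 and pre-cDC1, KO and WT, grouped by the genotype and cell type of the labels. Per the labels' protocols, 2 ng of total RNA with ERCC controls was amplified by SMARTSeq v2 and sequenced as paired ends. Per the submitters' processing notes, which name tools without their roles, the authors used STAR 2.3, featureCounts 1.5.0, edgeR and R 3.3.3 and the build GRCm38 (mm10). No source used here states the annotation release or the strand setting. The deposited values are log2 RPKM per gene, normalized by the authors and containing a small added count. With gene lengths of GENCODE mouse release M21, all 490350 values of 49035 genes gave whole reads within 0.001, with a mean added count of 0.245 reads. The reads served for depth (7862417 to 13177642 per library), zeros and voom. They are PCR reads without molecular identifiers, so a floor of 3 reads covers counting error only.

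The 14787 genes that exceeded 0 log2 RPKM in 2 libraries or more were fitted with limma 3.58.1 in R 4.3.3 (4 group means, all libraries, eBayes with trend, 6 residual and 3.31 prior degrees of freedom), without a further pseudocount. Tests were two-sided, with Benjamini-Hochberg adjustment across all tested genes per comparison. Positive values mean higher in KO or in pre-cDC2. The ligands, the other gene lists, the comparisons and the rule that names genes (every ligand, and of each other list the genes past the test or otherwise the 2 with the smallest p) were chosen with earlier results of these data known. Levels between genes are compared as RPKM. Alternatives were other filters, eBayes without trend, a pseudocount of 1 RPKM, median centring, quantile normalization, a fit with the compared groups only, a replicate block, voom and leaving out each library in turn. Where a pre-cDC2 library was left out, the lone sample was assumed to vary like the other groups. The fit was run on simulated reads with differences planted in genes with ample reads and with the same dispersion for every gene. That run does not test genes with few reads or a library that stands apart. The name Itgam is shared by a pair of rows and was left out of the cDC2 markers. A few gene results are not reported here.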

Additional observations from a re-analysis of the deposited data

How the results depend on the processing

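No paired analysis was taken as the design, because same-numbered libraries did not deviate together: correlations of their deviations from the group means were -0.0301 to 0.0314. With the replicate block, the numbers of genes past the threshold were 0 in KO against WT pre-cDC1 (1242 with an unadjusted p below 0.05 by limma), 2 in pre-cDC2, where KO and WT share 1 number, 217 and 1094 between the cell types in WT and KO, 0 for the interaction (581) and 0 averaged (1505). The counts without it were 4, 10, 1697, 3074, 3 and 16. The block cost the calls between the cell types of Ccl3, Ccl4, Ccl6, Cxcl9 and Cxcl16 in WT (limma adjusted p = 0.218, 0.0765, 0.129, 0.0565 and 0.0644) and of Ccl6 in KO (0.0662).

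The count in KO against WT pre-cDC1 was 11 without a filter, 18 with the stricter filter, 2 with 1 RPKM added, 9 after quantile normalization, 18 without trend, 53 with the compared groups only and 0 by voom (1183 unadjusted). In pre-cDC2 it was 25 without a filter, 5 with 1 RPKM added, 42 without trend, 0 with the compared groups only (651 unadjusted) and 4 by voom. Between the cell types in WT it was 460 with the compared groups only. The interaction gave 1 with the stricter filter, 6 after quantile normalization, 36 without trend and 1 by voom, and the average 45 without trend and 5 by voom. Leaving out 1 library gave 0 to 111 and 5 to 1024 for KO against WT in pre-cDC1 and pre-cDC2, 991 to 2722 and 1396 to 3845 between the cell types in WT and KO, 0 to 456 for the interaction and 0 to 1090 averaged. The cause was not tested.

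Some directions among the ligands turned. Centring put Ccl4 in KO against WT pre-cDC2 at -0.038. Leaving out 1 library gave -0.17 to 0.055 for Cxcl9 in pre-cDC1. In pre-cDC2 it gave -0.0034 to 0.42 for Ccl3, -0.20 to 0.27 for Ccl4, -1.65 to 0.43 for Ccl9, -2.02 to 0.81 for Cxcl16 and -2.76 to 0.077 for Cxcl9. Between the cell types it gave -0.53 to 1.56 for Ccl9 in WT and -0.51 to 0.15 for Cxcl10 in KO. The interaction ranged from -1.32 to 0.84 for Ccl6, -1.95 to 0.87 for Cxcl16 and -2.73 to 0.11 for Cxcl9, and the average from -1.04 to 0.38 for Cxcl16 and -1.40 to 0.022 for Cxcl9. Other directions of the tested ligands held under the alternatives run. Groups held 2 or 3 libraries, and Cxcl9 had 2 to 32 reads in pre-cDC2, which limits the precision of these values.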
